A study of Carica papaya with 55 samples.

Results

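The count tables of this papaya flower study list 193 features of the sex chromosomes, and 27 of them lie on the Y and have no partner of the same base name on the X. They were chosen by name and chromosome alone: a feature entered when its chromosome was the Y and its name, without the ending that marks the X or the Y copy, was not found on the X. The other features are 69 Y features with an X partner, 70 X features with a Y partner and 27 X features without a Y partner. Of the 27 members, 16 have names that start with CpY, 10 have names that start with PCpY, and 1 is PXYCpXY3_MSY.

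Papaya has males with an X and a Y and females with a pair of X chromosomes. On the Y, a region that does not recombine with the X has kept some genes of the ancestral pair and holds others for which no X copy is recognised. Male flowers form stamens and pollen and keep an arrested pistil, the pistillode, while female flowers form a pistil with ovules. A feature that is present only on the Y should give no reads in female tissue, so female libraries measure the background of each such feature. The files give these members names but no functions, and none of the 27 names was found among the 48816 genes of the RefSeq table at hand, so no role is given to any of them and no sequence is printed.

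RNA-seq was done on total RNA from flowers of the genotype AU9, which all groups share, in 34 male and 21 female libraries. Male groups were whole buds under 1 mm (stage S0), stamens and pistillodes at 5 stages, and pollen of mature buds. Female groups were whole buds under 1 mm, pistils at the same 5 stages, and ovules of mature buds. Stages S1, S2 and S3 were buds of 1 to 1.5, 2 to 4.5 and 4.5 to 6.5 mm and are labelled pre-meiotic. Stage S4 was 7 to 12 mm and post-meiotic, and S5 was the mature bud of 15 to 20 mm. Each group had 3 libraries, except pistillodes at S2 and S3 with 2 each. No label tells if the replicates of a group are separate plants, so p-values measure the spread between these libraries, which may be technical. The labels also do not say whether pollen was removed from mature stamens, so pollen inside a mature stamen and expression in the stamen itself cannot be told apart.

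The tables hold 21475 to 106846 counts per library, which are counts over sex-linked features and not sequencing depth. Levels below are in CPM, the usual unit of counts scaled to a common library total, which here is the TMM-scaled total of the table. They are therefore levels relative to the other sex-linked features. In bulk samples, fewer cells of a type and less RNA per cell cannot be told apart. The labelled organs could not be checked with marker genes, because no feature carries a functional name, but the sex labels could in part. The 23 members without steady female counts summed to 239 to 1855 counts in each male library and to 0 to 18 counts in each female library.

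Most members are short. Their summed exon length had a median of 336 bases (105 to 2366), against 915 bases (148 to 6605) for the Y features with an X partner. A single exon was annotated for 20 of the 27 members, or 74.1%, and for 19 of those 69 features, or 27.5%. Neither trait is particular to the members. The 27 X features without a Y partner had a median of 273 bases, and 18 of them, or 66.7%, had a single exon. Coordinates here are those of the deposited tables, for which no label or header names a genome build. Along the Y the members begin with CpY1_MSY at 35857 to 36232 and end with PXYCpXY3_MSY at 4290900 to 4291615. None of their exons overlaps an exon of another listed feature.

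Several members lie close together. CpY18_MSY and CpY17_MSY are 444 bases apart, and CpY20_MSY and CpY19_MSY are 822 bases apart. CpY8_MSY, at 1293317 to 1293421, and CpY9_MSY, at 1293642 to 1293960, are 220 bases apart. Both of these, with CpY7_MSY and PCpY3_MSY, are annotated on the minus strand between exons of PXCpXY6_MSY, a Y feature with an X partner whose 8 exons run on the plus strand from 1257496 to 1300461. Per the file headers the reads were counted without strand, so unspliced reads of that feature and reads of the 4 members inside it cannot be told apart.

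CpY17_MSY has an unusual annotation. It spans 3981090 to 3985922 with 4 exons, of which the first pair, 50 and 886 bases, is annotated on the minus strand and the second pair, 886 and 50 bases, on the plus strand. The gaps between them are 37, 2887 and 37 bases, so the exon and gap lengths read the same from both ends. The headers show that reads with several alignments were counted at each place. A read that fits both arms may therefore have been counted more than once, which was not tested.

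All 27 members had at least 1 count in male libraries, but they fell into groups of very different abundance. By the rule used here, 13 members averaged 10 or more counts per library in at least 1 male group, against 59 of the 69 Y features with an X partner. Among the 27 X features without a Y partner, 5 did. The same 13 passed the filter on low counts and were tested. The other 14 members had between 1 count (PCpY5_MSY) and 59 counts (PCpY3_MSY) over all 34 male libraries. Per kilobase of exon, the mean level over the 12 male groups had a median of 75.8 CPM per kb among the 27 members and 3464 CPM per kb among the Y features with an X partner.

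A few members reached high levels nonetheless. Per kilobase, CpY17_MSY ranked 5 among the 96 Y features, PCpY4_MSY ranked 7, CpY19_MSY ranked 8 and CpY1_MSY ranked 13. CpY17_MSY alone gave 44.1% of all member counts in males, PCpY4_MSY 17.1%, CpY19_MSY 15.2% and PXYCpXY3_MSY 9.36%. The ranks of the first and second of these rest on few groups: CpY17_MSY was high in pollen and mature stamens, and PCpY4_MSY in single pistillode libraries.

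**Figure D1:**
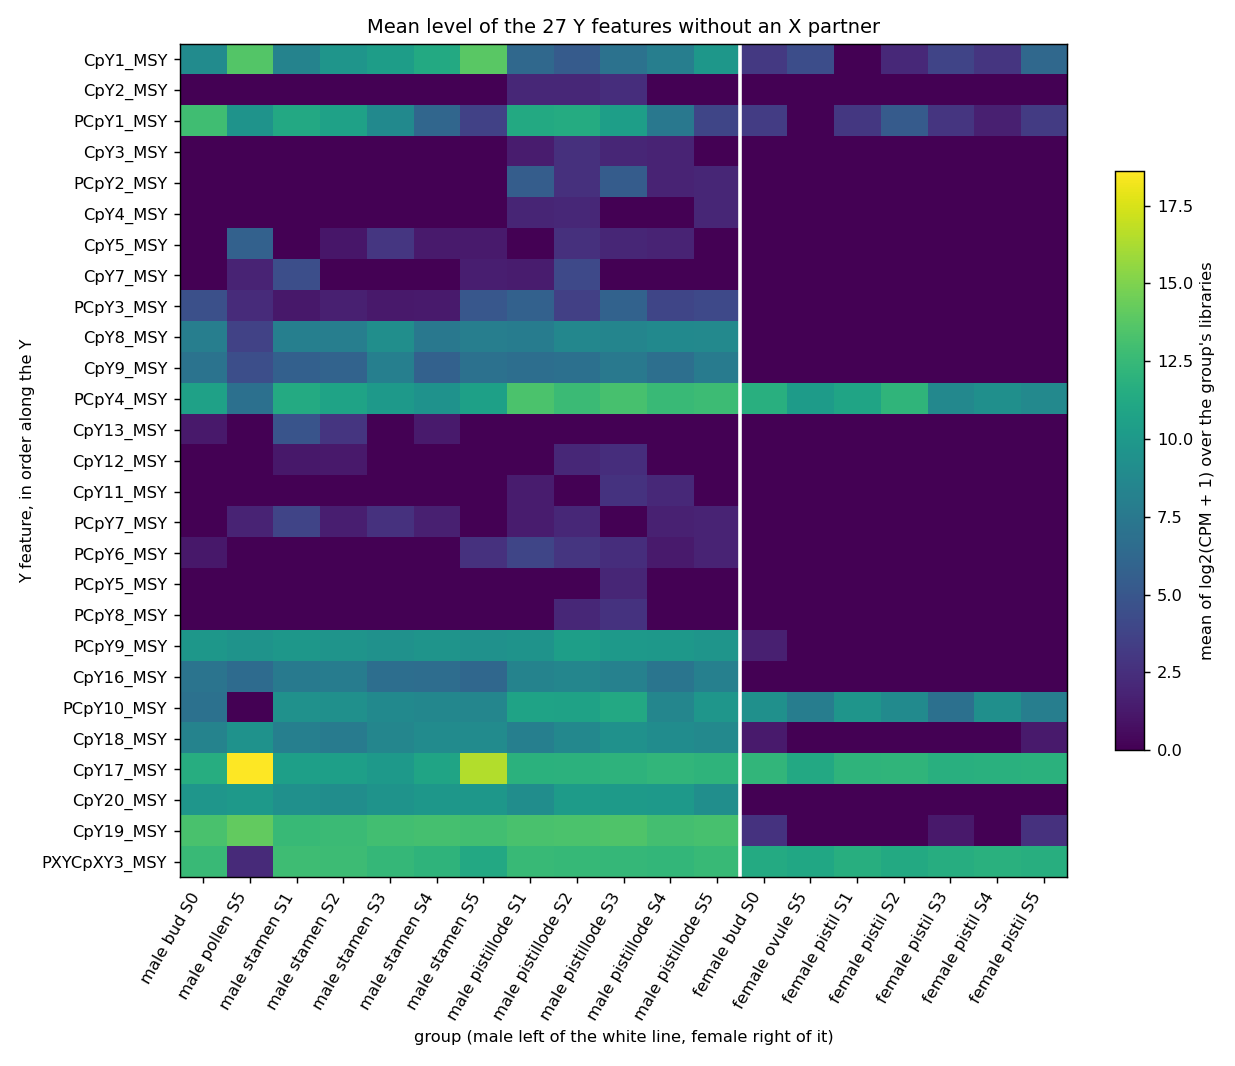
Mean of log2(CPM + 1) over the libraries of each group, for the 27 members (rows, in order along the Y) in the 12 male groups (left of the white line) and the 7 female groups (right of it). Most rows are dark right of the line, while CpY17_MSY, PCpY4_MSY, PCpY10_MSY and PXYCpXY3_MSY keep a signal in all 7 female groups.

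The first comparison asks which members were present in male and absent from female flowers. No count was found in any of the 21 female libraries for 18 of the 27 members, which allows up to 3 counts over those libraries for each. Of these 18, 14 were the members too low to test, with 1 to 59 counts each over the 34 male libraries. The rest, CpY8_MSY, CpY9_MSY, CpY16_MSY and CpY20_MSY, had 690, 292, 432 and 1827 male counts. Female counts were also absent for 10 of the 69 Y features with an X partner. The same held for 2 of the 70 X features with a Y partner. It also held for 14 of the 27 X features without a Y partner, so a lack of female counts alone does not set the members apart. Most of those 27 X features were low in males too, as only 5 averaged 10 or more counts in any male group. Another 5 members had 2 to 44 female counts in all. The remaining 4, CpY17_MSY, PCpY4_MSY, PXYCpXY3_MSY and PCpY10_MSY, had counts in all 21 female libraries and gave 13923 of the 14003 member counts there, or 99.4%. Members took 1.83 to 38.2% of the table's counts in male libraries (median 3.10%) and 0.531 to 2.20% in female libraries (median 0.988%).

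CpY19_MSY, CpY20_MSY, PCpY9_MSY and CpY18_MSY were present in every male library and nearly silent in every female one. In male buds CpY19_MSY had 738, 880 and 852 counts, against 0, 1 and 1 in female buds. CpY20_MSY had 87, 63 and 68 counts in male buds, against 0 in each female bud library. The groups did not overlap for either. CpY19_MSY was higher in male than in female buds by 9.64 on the log2 scale (SE 0.31, edgeR adjusted p = 6.6e-24). Both features passed the count filter through male libraries alone. With counts in every male library and almost none in female ones, a sex difference was built in. The p-value adds no support to it. CpY20_MSY, with no female count in any library, was at least 55.5-fold higher in male buds when the female group is set at 3 counts.

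Of the 13 members tested, 10 were higher in male buds than in female buds and none was lower. Among all 139 features tested, 64.7% passed in either direction 37.4% were higher and 27.3% lower. These shares are no measure of the members' own behaviour. A Y feature that passed the count filter through male libraries alone is higher in males in the groups that carried it through. In other groups the sexes may still overlap, as for PCpY1_MSY between pistillodes and pistils at S5. In pistillodes against pistils, averaged over S1 to S5, 12 of 13 members were higher and none was lower, beside 82.7% of all features in either direction, 46% higher and 36.7% lower. The member that did not pass was CpY17_MSY, with a difference of 0.11 (SE 0.15, adjusted p = 0.53), and its pistillode and pistil libraries overlapped at all 5 stages. These sex comparisons rest on TMM scaling over all features. Scaling on X features alone moved the median of all features by 0.57 between buds and by 0.59 between pistillodes and pistils. CpY17_MSY then passed with 0.71 (edgeR adjusted p = 2.8e-05). Males have a single X and females a pair, and only sex-linked features are listed. Neither scaling therefore has a reference known to be equal between the sexes.

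The 4 members with steady female counts differed in how far males stood above that background. PXYCpXY3_MSY had 450, 508 and 613 counts in male buds, against 218, 179 and 125 in female buds. Male buds were higher by 1.21 on the log2 scale (SE 0.26, adjusted p = 9.1e-05), and pistillodes were higher than pistils by 0.81 (SE 0.12, adjusted p = 7.2e-08), with no overlap at 4 of 5 stages. This is a higher level over a female background and not presence against absence. With the scaling on X features, to which the limit above applies, the pistillode difference was 1.41.

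For the other three the buds gave no call. CpY17_MSY had 253, 270 and 260 counts in male buds, against 265, 379 and 303 in female buds, a difference of -0.68 (SE 0.31, adjusted p = 0.056). PCpY10_MSY had 16, 6 and 11 counts in male buds, against 49, 38 and 37 in female buds, a difference of -2.28 (SE 1.08, adjusted p = 0.061), which DESeq2 gave an adjusted p of 0.039. In CPM the male libraries were the lower ones for both, without overlap, although the feature is annotated on the Y. PCpY4_MSY had 449, 49 and 114 counts in male buds, against 212, 71 and 648 in female buds, and these overlapped (-1.10, SE 1.37, adjusted p = 0.50). Whether female counts at these features come from similar sequence elsewhere in the genome was not tested.

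CpY17_MSY had the highest group mean of any member, in pollen. Pollen libraries had 9272, 10064 and 8306 counts at this feature, or 33.0, 35.2 and 29.9% of all counts in their tables. Mature stamens at S5 had 8739, 11895 and 2265 counts. Stamens from S1 to S4 had 65 to 164 counts, and all 13 pistillode libraries had 96 to 387. Female libraries had 133 to 379 counts. Pollen and S5 stamens thus stood far above every other library. The 28 other male libraries had 925 to 6415 CPM and overlapped the female ones, which had 1696 to 5640 CPM.

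Within stamens, S5 was higher than S4 by 5.92 on the log2 scale (SE 0.38, adjusted p = 1.0e-16). The late stages (the mean of S4 and S5) were higher than the early ones (the mean of S1 to S3) by 3.49 (SE 0.21, adjusted p = 1.3e-18). Pollen was higher than S5 stamens by a further 1.80 (SE 0.31, adjusted p = 1.8e-06), and the pollen and stamen libraries did not overlap in CPM.

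Before maturity the order was the opposite. Stamens at S1 to S4 averaged 1467 ± 251, 1439 ± 236, 1090 ± 148 and 1919 ± 373 CPM (SD, n = 3 each). Pistillodes at the same stages averaged 3846 ± 435, 3911 ± 493, 4416 ± 1884 and 4856 ± 1379 CPM (SD, n = 3, 2, 2 and 3). The stamen libraries lay below the pistillode libraries, and below the female pistil libraries, at each of these 4 stages with no overlap. The log2 difference of stamens against pistillodes was -1.39 at S1 (SE 0.32, adjusted p = 0.0034), -1.44 at S2 (SE 0.35, adjusted p = 0.0045), -2.02 at S3 (SE 0.36, adjusted p = 3.2e-05) and -1.35 at S4 (SE 0.32, adjusted p = 0.00064). At S5 the difference was 4.70 in favour of stamens (SE 0.35, adjusted p = 4.9e-15). The mean over the 5 stages, -0.30 (SE 0.15, adjusted p = 0.094), therefore describes no stage. Stamens at S1 to S4 had 925 to 2199 CPM and all pistillodes 3084 to 6415 CPM, against 1696 to 5640 CPM in female libraries. The calls at S1 to S4 thus lie mostly within or below the female background. Whether they reflect reads of the Y feature or a difference in that background was not tested.

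**Figure D2:**
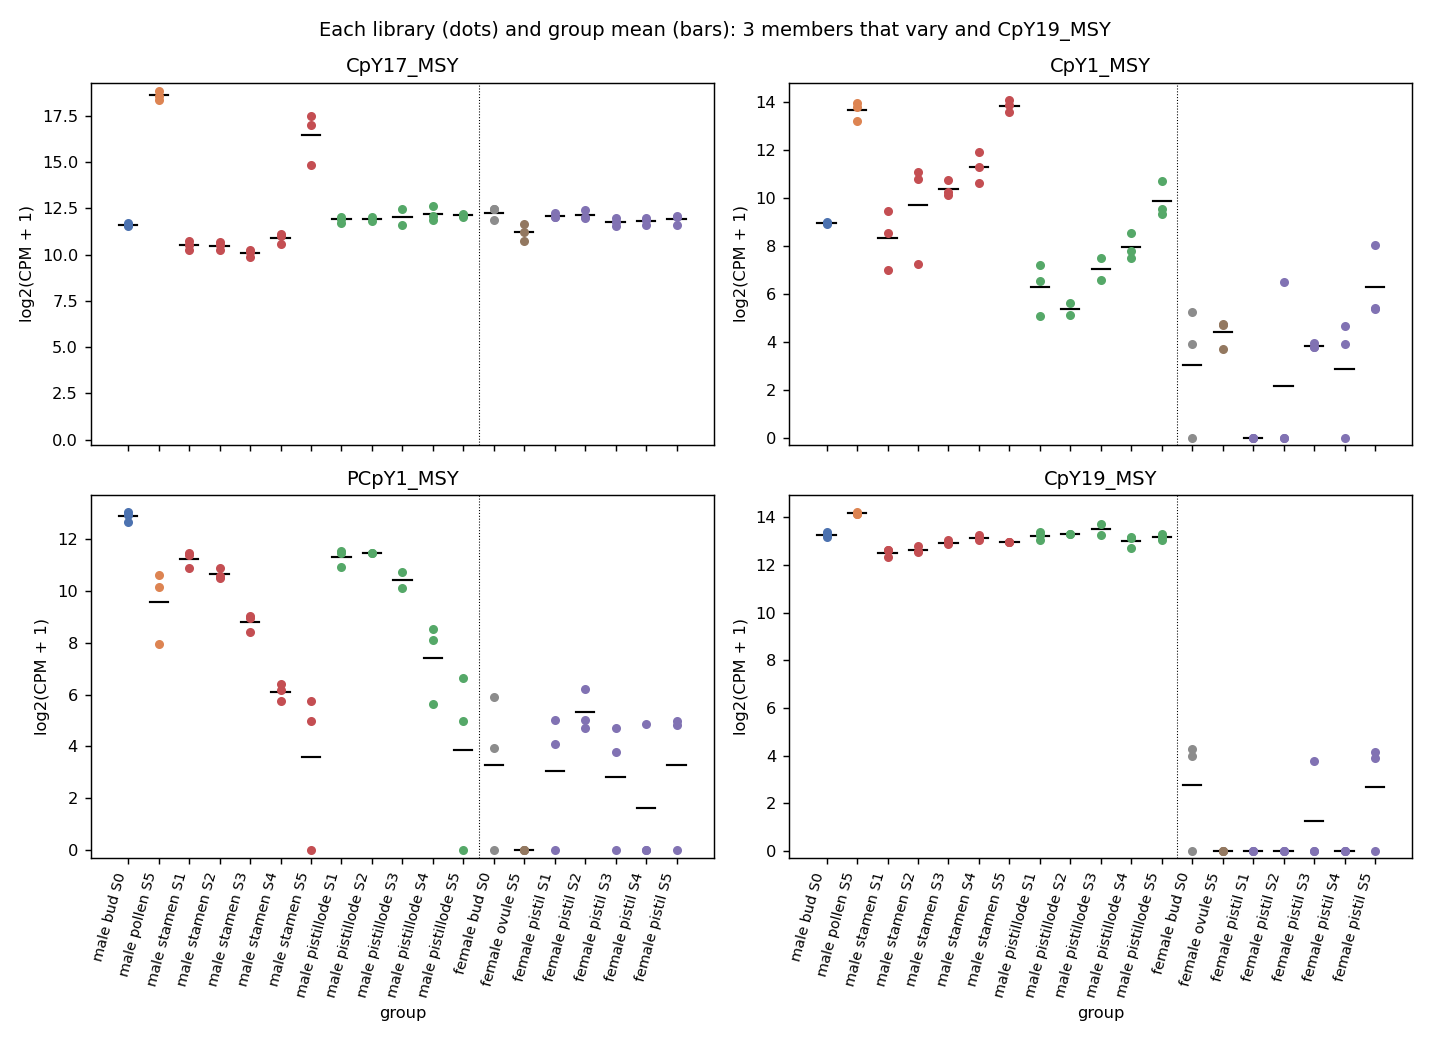
Level of CpY17_MSY, CpY1_MSY, PCpY1_MSY and CpY19_MSY as log2(CPM + 1) in each library (dots) with the group mean (bars); male groups stand left of the dotted line and female groups right of it. CpY17_MSY peaks in pollen and S5 stamens, CpY1_MSY climbs through the stamen stages, PCpY1_MSY is highest in male buds and falls with stage, and CpY19_MSY is high in every male library, most of all in pollen, and near 0 in females.

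CpY1_MSY, a feature of 2 exons and 273 exon bases, climbed with stamen stage without the early dip of CpY17_MSY. Its stamen libraries had 12, 27 and 48 counts at S1, 125, 248 and 12 at S2, 79, 112 and 89 at S3, 193, 232 and 112 at S4, and 992, 1145 and 924 at S5. Pistillodes had 2 to 23 counts from S1 to S4 and 43, 125 and 23 at S5. Pollen had 329, 340 and 237 counts in libraries of lower totals. Stamens lay above pistillodes with no overlap at 4 of 5 stages, and the exception was S1.

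Over the 5 stages CpY1_MSY was higher in stamens than in pistillodes by 3.50 on the log2 scale (SE 0.34, adjusted p = 1.5e-11), and it was the one member tested that was higher in stamens. Late stages were higher than early ones in both organs, by 2.81 in stamens (SE 0.36, adjusted p = 5.4e-09) and by 2.71 in pistillodes (SE 0.55, adjusted p = 0.00017). Stamens at S5 were higher than at S4 by 2.48 (SE 0.56, adjusted p = 0.00045). Pollen at 13222 ± 3254 CPM and S5 stamens at 15019 ± 2756 CPM (SD, n = 3 each) overlapped, and their difference was -0.18 (SE 0.53, adjusted p = 0.79). Females had 0 to 16 counts per library, and the most, 16, came from a pistil library at S5.

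PCpY1_MSY, a single exon of 737 bases, ran the other way in time. Male buds had 518, 686 and 680 counts. Stamens had 181, 192 and 191 counts at S1, 131, 171 and 115 at S2, 24, 32 and 38 at S3, 4, 5 and 5 at S4, and 2, 0 and 4 at S5. Pistillodes had 153, 116 and 193 counts at S1, 167 and 176 at S2, 58 and 114 at S3, 20, 3 and 6 at S4, and 2, 0 and 3 at S5. At S5 both organs were at the level of the female libraries, which had 0 to 5 counts.

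The difference of late against early stages was -4.71 in stamens (SE 0.46, adjusted p = 6.4e-12) and -4.67 in pistillodes (SE 0.46, adjusted p = 8.8e-11). The difference between those values was -0.04 (SE 0.56, adjusted p = 1.0), so no difference between the organs in this change was detected at this spread. The late libraries had few counts, 0 to 5 in stamens and 0 to 20 in pistillodes. A difference between organs therefore had little room to show. Pollen libraries had 37, 24 and 6 counts, and pollen was higher than S5 stamens by 5.0 (SE 0.73, adjusted p = 8.9e-08). By stage, stamens lay below pistillodes without overlap at S2 and S3, and the libraries overlapped at S1, S4 and S5. The edgeR differences were -0.81 at S2 (SE 0.52, adjusted p = 0.38), -1.62 at S3 (SE 0.55, adjusted p = 0.022) and -1.64 at S4 (SE 0.71, adjusted p = 0.057). Averaged over stages, stamens were below pistillodes by -0.85 (SE 0.33, adjusted p = 0.029). That call was lost in many settings, as when the first S4 pistillode library was left out (-0.52, adjusted p = 0.23). Male buds and later organs were not tested against each other, because the file headers place the 6 bud libraries in another folder than the other 49.

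CpY19_MSY, CpY20_MSY, PCpY9_MSY and CpY18_MSY varied less across stamens and pistillodes than the 3 members above. Over these 10 groups the highest mean exceeded the lowest 2.00-fold for CpY19_MSY, 2.01-fold for PCpY9_MSY, 2.24-fold for CpY20_MSY and 3.40-fold for CpY18_MSY, against 106-fold for CpY17_MSY, 365-fold for CpY1_MSY and 102-fold for PCpY1_MSY. The lowest mean of PCpY1_MSY, in S5 stamens, was at the female background. CpY19_MSY has 6 exons, the most of any member, and lies on the opposite strand from its neighbour CpY20_MSY. Its highest group mean was 18389 ± 543 CPM in pollen and its lowest 5912 ± 600 CPM in S1 stamens (SD, n = 3 each).

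Smaller differences of CpY19_MSY still passed, because its replicates were tight. Stamens had 6253, 6264 and 5220 CPM at S1, against 8537, 10565 and 9835 CPM in S1 pistillodes, a difference of -0.71 (SE 0.17, adjusted p = 0.0034). The mean difference over 5 stages was -0.41 (SE 0.08, adjusted p = 2.7e-05), and stamens lay below pistillodes without overlap at 4 stages. Pollen had 18330, 17878 and 18958 CPM, against 8086, 8052 and 8014 CPM in S5 stamens, and was higher by 1.19 (SE 0.17, adjusted p = 8.9e-08). The stamen change with stage, 0.35 (SE 0.11, adjusted p = 0.0038), was -0.09 (adjusted p = 0.50) when table totals replaced TMM scaling, so its direction rests on the scaling.

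CpY18_MSY lies beside CpY17_MSY on the chromosome, but its highest male group means were nearly equal in pollen and in S3 pistillodes. The S3 pistillodes averaged 720 CPM, from libraries at 489 and 951 CPM. Pollen libraries averaged 721 ± 117 CPM, against 512 ± 132 CPM for stamens at S5 (SD, n = 3 each), and overlapped them, a difference of 0.49 (SE 0.36, adjusted p = 0.24). It was higher in late than in early stamens by 0.88 (SE 0.23, adjusted p = 0.00093), a call that table totals did not keep (0.44, adjusted p = 0.11). PCpY9_MSY and CpY20_MSY passed no comparison among male organs. The PCpY9_MSY difference between stamens and pistillodes was -0.36 (SE 0.18, adjusted p = 0.10), and that of CpY20_MSY was -0.25 (SE 0.19, adjusted p = 0.28). For late against early stamens CpY20_MSY had 0.52 (SE 0.26, adjusted p = 0.077), which passed with scaling on X features (0.67, adjusted p = 0.019).

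PXYCpXY3_MSY fell with stage in stamens and was all but absent from pollen. Stamens averaged 7241 ± 1496, 6954 ± 383, 5415 ± 433, 4310 ± 348 and 2723 ± 1761 CPM from S1 to S5 (SD, n = 3 each). Pistillodes stayed between group means of 5051 and 6011 CPM. Pollen had 0, 2 and 0 counts, against 123, 100 and 359 in S5 stamens, a ratio of 0.0102 (95% counting interval 0.00123 to 0.0370, which covers counting error only).

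Late stamens were below early ones in PXYCpXY3_MSY by -0.92 (SE 0.17, adjusted p = 7.7e-06), and pistillodes showed -0.03 (SE 0.18, adjusted p = 0.97). The difference between the organs was itself -0.89 (SE 0.24, adjusted p = 0.0026). S5 stamens were below S5 pistillodes by -1.13 (SE 0.26, adjusted p = 0.00025). Without the third S5 stamen library, which had the highest count of this feature and the lowest of CpY17_MSY in its group, that difference was -1.81, and a fit of the groups compared alone gave -0.96 (adjusted p = 0.10). The step from S4 to S5 in stamens, -0.66 (SE 0.26, adjusted p = 0.042), was not called in most of the settings tried, as with scaling on X features (-0.52, adjusted p = 0.11).

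PCpY4_MSY and PCpY10_MSY differed widely between replicates of a group. PCpY4_MSY had 899, 503 and 531 counts in pistillodes at S1, 1604 and 95 at S2, 170 and 1832 at S3, 105, 68 and 2384 at S4, and 108, 44 and 10615 at S5. The highest of these made up 28.2% of its library's counts. That library and the one with 2384 counts had the lowest table totals among pistillodes, 37595 and 21475. PCpY10_MSY had 262, 123 and 35 counts in pistillodes at S1, 367 and 29 at S2, 44 and 458 at S3, 9, 5 and 82 at S4, and 51, 14 and 133 at S5. The library with the most PCpY4_MSY counts also had the most PCpY10_MSY counts in all 5 pistillode groups, in 8 of the 12 male groups and in 3 of the 7 female groups.

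**Figure D3:**
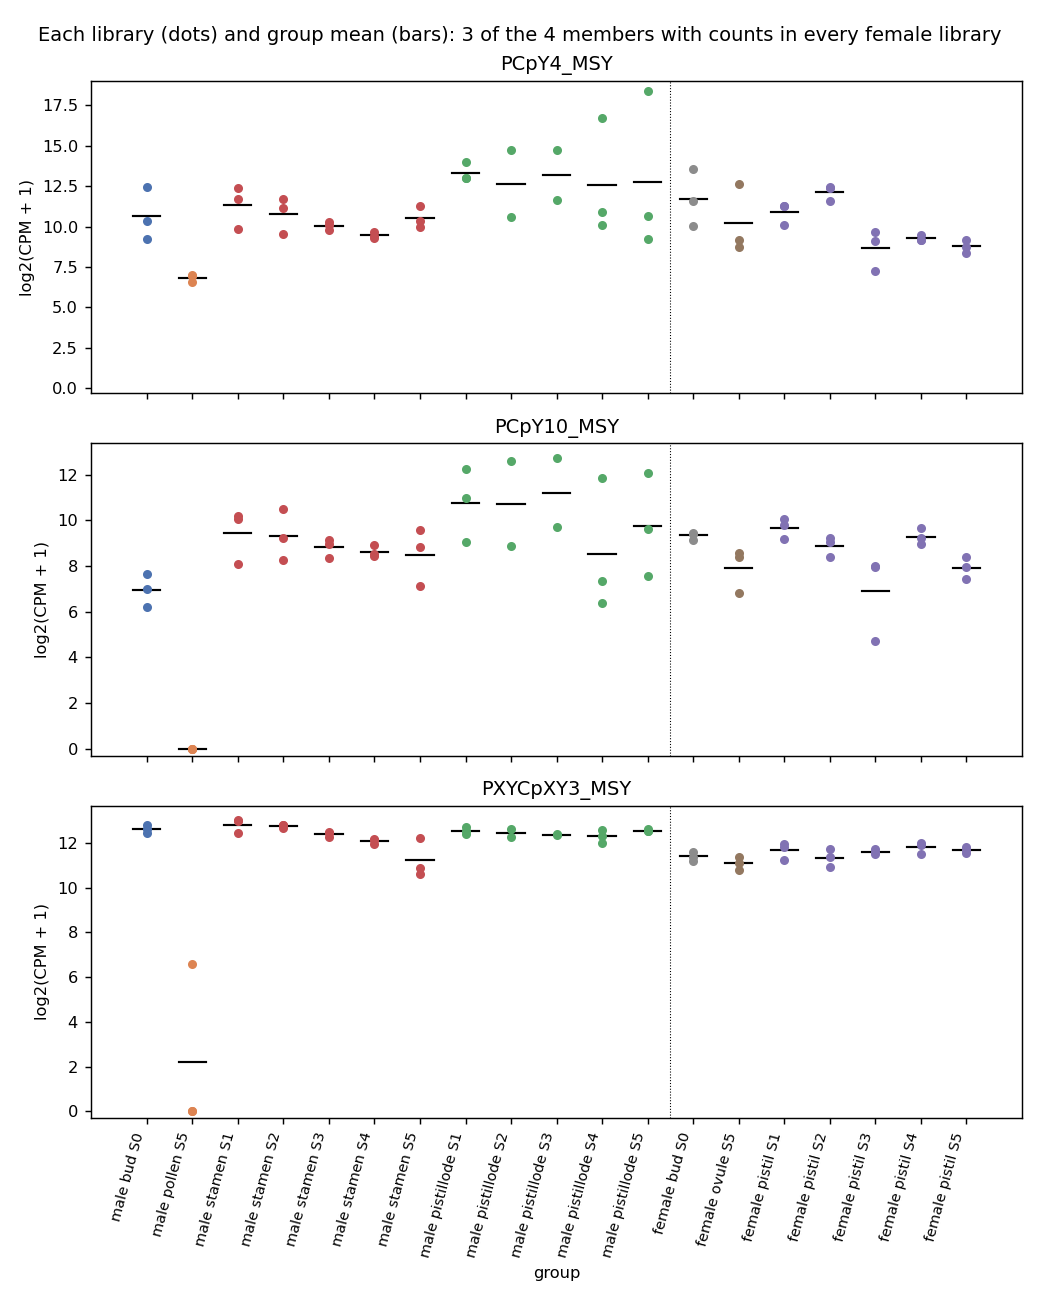
Level of PCpY4_MSY, PCpY10_MSY and PXYCpXY3_MSY as log2(CPM + 1) in each library (dots) with the group mean (bars), male groups left of the dotted line and female groups right of it. PCpY4_MSY and PCpY10_MSY spread widely within pistillode groups, while PXYCpXY3_MSY spreads less in most groups other than S5 stamens and pollen, has higher means in most male than female groups, and is lowest in pollen, where 2 of 3 libraries have no count.

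How far the differences at these members depend on the highest libraries was examined by leaving those out. PCpY4_MSY was lower in stamens than in pistillodes by -4.04 (SE 0.69, adjusted p = 4.3e-06) over the 5 stages and PCpY10_MSY by -2.04 (SE 0.45, adjusted p = 0.00019). Without the 4 libraries with over 1000 counts at PCpY4_MSY, the differences were -0.65 (adjusted p = 0.23) and 0.02 (adjusted p = 1.0). Those libraries were picked by this outcome after seeing the data and are all pistillodes, so a smaller PCpY4_MSY difference was bound to follow, and the values show only how much of it they carry. At S5 the PCpY4_MSY difference of -6.17 (SE 1.65, adjusted p = 0.0015) became 0.54 (adjusted p = 0.77) without the third pistillode library. Against pistils, the pistillode excess of PCpY4_MSY was 4.58 (SE 0.71, adjusted p = 3.0e-07) with these libraries and 1.27 (adjusted p = 0.0073) without them, and that of PCpY10_MSY was 2.49 (SE 0.46, adjusted p = 5.8e-06) with them and 0.51 (adjusted p = 0.22) without.

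Pollen had little of either. PCpY10_MSY had 0 counts in all 3 pollen libraries, against 9, 29 and 58 in S5 stamens, and was at least 10.8-fold lower in pollen when the pollen group is set at 3 counts. The adjusted p of 0.018 rose to 0.052 and 0.065 when the third pollen or the third stamen library was left out. PCpY4_MSY had 3, 2 and 3 counts in pollen, against 66, 84 and 191 in S5 stamens, without overlap; edgeR gave -3.79 (SE 2.33, adjusted p = 0.15) and DESeq2 -3.39 (adjusted p = 0.017).

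CpY8_MSY, CpY9_MSY and CpY16_MSY were low, with no female count in any library. CpY8_MSY had 59 counts over the 3 S5 stamen libraries and 2 over the 3 pollen libraries, a pollen difference of -3.20 (SE 0.70, adjusted p = 0.00016). PXCpXY6_MSY, the feature that CpY8_MSY lies inside, averaged 17005 CPM in pollen, against 7343 CPM in stamens at S5. These are counts over its exons and do not measure its unspliced reads. CpY8_MSY had its highest male group mean in S3 stamens, at 621 ± 234 CPM, and CpY9_MSY did too, at 298 ± 187 CPM (SD, n = 3 each). Counts of CpY8_MSY exceeded those of CpY9_MSY in 11 of the 12 male groups, though it is the shorter of the pair, and pollen was the exception with 2 and 5 counts.

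Late stamens were below early ones in CpY8_MSY by -0.62 (SE 0.27, adjusted p = 0.047), a call that most settings lost, DESeq2 among them (-0.66, adjusted p = 0.076). CpY9_MSY passed no comparison among male organs. CpY16_MSY averaged 74 ± 20 to 231 ± 75 CPM over the stamen groups (SD, n = 3 each) and 173 ± 123 to 385 ± 185 CPM over the pistillode groups (SD, n = 3 and 2). It was lower in stamens than in pistillodes by -1.09 (SE 0.23, adjusted p = 0.0002) over the stages and by -1.92 (SE 0.53, adjusted p = 0.0024) at S5. Late stamens were below early ones by -1.02 (SE 0.34, adjusted p = 0.011), which became -0.64 (adjusted p = 0.10) without the first S1 stamen library.

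Counted over the 13 members tested, 6 differed between stamens and pistillodes over the 5 stages, with 1 higher and 5 lower, where 51.1% of all features passed in either direction, 16.5% higher and 34.5% lower. The median difference was -0.36 for the 13 members and -0.14 for all features. At S1 alone 2 members were lower and none higher, CpY17_MSY and CpY19_MSY, beside 10.1% of all features (5.76% higher and 4.32% lower). At S5 there were 2 higher and 3 lower, beside 56.8% of all features (24.5% higher and 32.4% lower).

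For late against early stamens 4 members were higher and 4 lower, where 65.5% of all features passed (26.6% higher and 38.8% lower), and for pistillodes 1 was higher and 1 lower, where 23.7% passed (13.7% higher and 10.1% lower). The stage change itself differed between stamens and pistillodes for 5 members, where 47.5% of all features did (15.1% higher and 32.4% lower): CpY17_MSY by 3.30 (SE 0.30, adjusted p = 2.2e-12) and CpY19_MSY by 0.59 (SE 0.15, adjusted p = 0.0020) in favour of stamens, the second of which table totals did not keep (0.31, adjusted p = 0.11), and PXYCpXY3_MSY, CpY8_MSY and PCpY4_MSY in favour of pistillodes. Between S5 and S4 stamens 3 members passed, 2 higher and 1 lower, beside 38.8% of all features (12.9% higher and 25.9% lower). Pollen against S5 stamens gave 3 higher and 3 lower, beside 71.9% of all features (25.2% higher and 46.8% lower). In each of these comparisons the members' share was near to or below the share of all features, apart from S1. At S1, CpY17_MSY stood within or below its female background in both organs.

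**Figure D4:**
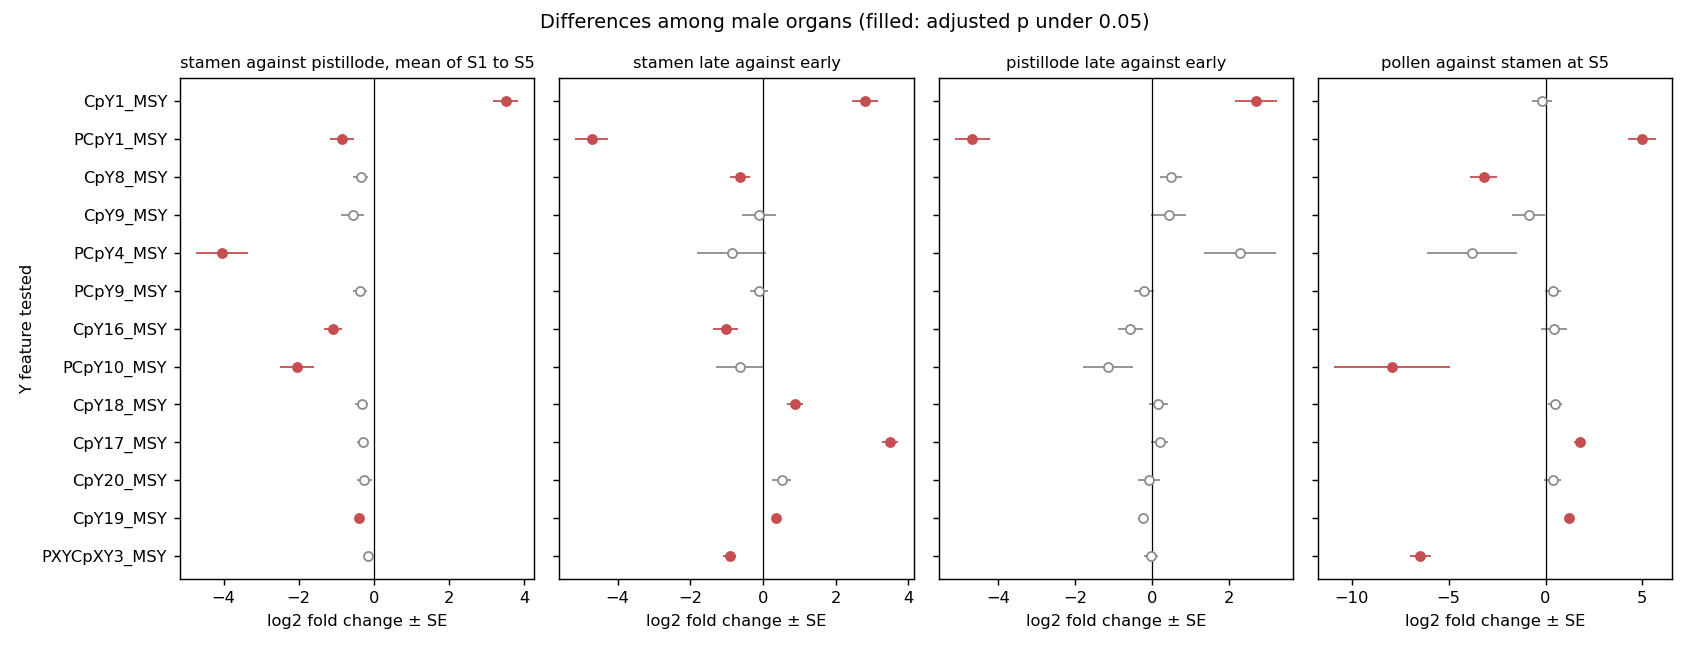
Log2 fold change ± SE from edgeR for the 13 members tested in 4 comparisons among male organs: stamen against pistillode, late against early stamens, late against early pistillodes, and pollen against S5 stamens. Filled points had an adjusted p under 0.05; CpY1_MSY and PCpY1_MSY move in opposite directions with stage in both organs, CpY17_MSY is higher in late stamens with a pistillode value of 0.20 that did not pass, and the PCpY10_MSY value in pollen comes from 0 counts there and is no estimate of size.

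Within female flowers no member passed. In ovules against pistils at S5, none of the 13 passed with edgeR or DESeq2 and 4 had an unadjusted p under 0.05, where 8.63% of all features passed (5.04% higher and 3.6% lower). In late against early pistils none passed with either tool and none had an unadjusted p under 0.05, where 16.5% of all features passed (5.04% higher and 11.5% lower). The female levels of CpY17_MSY and PXYCpXY3_MSY, whose group means ran from 2424 to 5014 CPM and from 2204 to 3616 CPM over the 7 female groups, are the background against which male values of these features stand.

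The 14 low members gave 185 counts in the 34 male libraries and none in the 21 female ones. Pistillodes had 117 of these counts, a summed level of 161 CPM without TMM scaling. Stamens had 51, or 42.7 CPM, pollen had 9, or 107 CPM, and male buds had 8, or 33.9 CPM. Of the 14, 13 were seen in pistillodes and 7 in stamens. PCpY2_MSY had 18 counts in pistillodes and 0 in stamens, and PCpY6_MSY had 16 in pistillodes and 2 in stamens. CpY13_MSY went the other way, with 12 counts in stamens and 0 in pistillodes, of which 7 came from S1. No test was made on these counts.

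The counts of the low members were gathered in few libraries. Among pistillodes, the first S1, the first S2 and the second S3 library had 21, 23 and 21 of them, and the 10 others had 0 to 11. The same 3 libraries had the highest PCpY10_MSY counts of all 55, at 262, 367 and 458. They also had 13, 27 and 18 counts over the 22 X features without a Y partner that were too low to test, whose median was 7 over the 13 pistillode libraries and 5 over the 21 female libraries. Other libraries reached such X counts with few counts of the low members. The first S5 stamen library had 20 beside 3, the third S5 pistillode library 18 beside 6, and the third S1 pistil library 16 beside 0. What part the gathering of counts in few libraries has in the pistillode excess was not tested.

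For the 3 members with the highest level per kilobase, the listed features with the most similar profile over the 12 male group means of log2(CPM + 1) were found. CpXY46_MSY was most like CpY17_MSY (Pearson r = 0.90), and its X partner CpXY46_X followed (r = 0.90). CpXY7_MSY was most like PCpY4_MSY (r = 0.91), followed by CpX16, an X feature without a Y partner (r = 0.85). PXCpXY22_MSY was most like CpY19_MSY (r = 0.85), followed by PXCpXY6_X_v3 (r = 0.82). These are descriptions over 12 groups that share libraries and scaling. The PCpY4_MSY means in pistillodes at S2 to S5 are each carried by a single library, so its likeness rests on few libraries.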

How the data were processed

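RNA-seq counts of 55 papaya flower libraries were deposited as 1 table per library with 193 sex-linked features. Per the file headers, the authors counted read pairs over exons by gene name with featureCounts 2.0.0, without strand, and counted reads with several alignments at each place. The submitters' processing notes name HISAT2 2.0.5 and SAMtools 1.3.1 for alignment files, Trimmomatic 0.36 and FastQC 0.11.5 for reads, and another featureCounts version, 1.5.2; no genome build is named. The depth of sequencing is unknown, since the tables hold sex-linked features only.

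Groups came from the sample labels. Counts were scaled by TMM and tested with edgeR 4.0.16 (R 4.3.3): filterByExpr by group, a robust quasi-likelihood fit of all 55 libraries with 1 coefficient per group, a prior count of 0.125 for fold changes, and Benjamini-Hochberg adjustment over the 139 features that passed the filter in each of 12 comparisons. An adjusted p under 0.05 was called. The filter kept 13 members, 59 Y features with an X partner, 62 X features with a Y partner and 5 X features without a Y partner. Members averaging at least 10 counts in 1 male group are described singly; in a comparison the called ones, and others where a count or contrast turns on them, are named. A group at 0 counts was set at 3 counts per group for a bound. Intervals and bounds cover counting error only. The members, lists and tests were chosen with earlier results of these data known. Scalings, filters, DESeq2 1.42.0, the libraries in the fit, a replicate block and leaving out each library were tried as alternatives. No 2 libraries of a group agreed within sampling noise (chi-square test over features, 53 pairs). The procedure was tested on simulated data. Figures were drawn with matplotlib 3.10.9.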

Additional observations from a re-analysis of the deposited data

Results flagged for a closer look

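For 5 members the change from early to late stages differed between stamens and pistillodes, by a test of the difference itself in edgeR. On the log2 scale, the stamen change minus the pistillode change was 3.30 for CpY17_MSY, 0.59 for CpY19_MSY, -0.89 for PXYCpXY3_MSY (adjusted p = 0.0026), -1.12 for CpY8_MSY (adjusted p = 0.020) and -3.15 for PCpY4_MSY (adjusted p = 0.0499). The value of PCpY4_MSY was 0.20 (adjusted p = 0.97) without the third S5 pistillode library, and that of CpY8_MSY was -0.83 (adjusted p = 0.087) without the first S5 pistillode library.

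Another 13 members were too low for the tests but had more counts over the 34 male libraries than the 3 that a count of 0 allows, with 0 counts in the 21 female libraries. Their male counts were 59 for PCpY3_MSY, 19 for PCpY6_MSY, 18 for PCpY2_MSY, 17 for PCpY7_MSY, 14 for CpY5_MSY, 13 for CpY13_MSY, 11 for CpY7_MSY, 7 for CpY2_MSY, 6 each for CpY4_MSY and CpY11_MSY, 5 each for CpY3_MSY and CpY12_MSY, and 4 for PCpY8_MSY. PCpY3_MSY and CpY7_MSY lie within the span of PXCpXY6_MSY on the other strand, and the reads were counted without strand.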

How the results depend on the processing

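The counts of members called kept within 1.5 times their value under the alternatives tried, with these exceptions, whose cause was not tested. With no count filter 3 members, in place of 5, differed between organs in their stage change. DESeq2 called 4 members, in place of 2, for late against early pistillodes. Late against early pistils gave 1 call, PCpY4_MSY, in place of 0, in a fit of the groups compared alone and again with the replicate number as a block. Without the 4 libraries with over 1000 counts at PCpY4_MSY, a setting chosen after seeing the data, 3 members in place of 6 differed between stamens and pistillodes. Leaving out 1 library at a time gave 3 to 6 calls for the difference in stage change, 2 to 4 for late against early pistillodes, 5 to 7 for stamens against pistillodes, 7 to 8 for late against early stamens and 5 to 6 for pollen against S5 stamens; the lowest 3 came without the third S1 or the second S2 pistillode library and the 4 without the second S4 pistillode library. Direction turned for CpY19_MSY in late against early stamens with table totals (-0.086), for PCpY10_MSY in stamens against pistillodes without those 4 libraries (0.019), and for PCpY4_MSY. At S5, PCpY4_MSY in stamens against pistillodes was 0.61 without those 4 libraries and between -6.67 and 0.54 when 1 library was left out, the highest without the third pistillode library. Its difference in stage change was 0.093 with the replicate block, 0.72 without those 4 libraries and between -4.17 and 0.20 when 1 library was left out, the highest without the third S5 pistillode library. Scaling by table totals in place of TMM moved the median of all features by -0.44 for late against early stamens and gave 2 members higher and 4 lower in place of 4 and 4. It moved the median by -0.42 for stamens against pistillodes at S5, with 2 higher and 5 lower in place of 2 and 3. For S5 against S4 stamens table totals gave 2 higher and 2 lower in place of 2 and 1. Same-numbered libraries of different groups at a stage had a median correlation of 0.0069 over 65 pairs, against -0.0036 over 130 pairs with different numbers. These pairs join male with female groups too, and the correlations are of deviations from the means of few libraries. They therefore cannot decide whether replicate numbers pair stamens with pistillodes. With the block, 5 members in place of 6 differed between stamens and pistillodes, and PCpY4_MSY and PCpY10_MSY were no longer called there. Counting depth limits the 14 low members, whose 0 to 23 counts per library gave no test.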
